A study of Mus musculus with 12 samples.

Results

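The 58 clustered protocadherin genes of mouse chromosome 18 were examined: 14 of the alpha cluster (Pcdha), 22 of the beta cluster (Pcdhb) and 22 of the gamma cluster (Pcdhg). They were chosen by position and symbol out of 33573 autosomal RefSeq genes used here, and lie between positions 36930285 and 37841873 of mm10. The rule uses no measured value, but the choice was made with earlier results of these data known. For each gene, CpG cytosines were taken between 1500 bp before and 2500 bp after its annotated start, provided that at least 10 of 12 libraries listed them. The members were taken to lie on the plus strand, as the rule states, and the 25 with a strand in the annotation at hand were all plus. The mean beta value of these cytosines, the fraction of reads called methylated, is the level of the window.

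DNA methylation was measured by reduced representation bisulfite sequencing (RRBS), which samples CpG-rich fragments, in immortalized mouse embryonic fibroblast (iMEF) lines. The experimental line was R26M2rtTA/+;TetOcre;Sdhcfl/fl and the control line R26M2rtTA/+;TetOcre;Sdhcfl/wt. Both lines therefore carried the rtTA transgene, the Tet-O Cre and a floxed Sdhc allele, and both were given doxycycline at 1 microgram/mL, so that Cre could remove both Sdhc copies in the experimental line and 1 in the control line. Each line gave 1 library at day 0, before doxycycline, and 1 on each of days 5, 9, 12, 16 and 20, and the question was whether loss of SDHC, a subunit of succinate dehydrogenase, was accompanied by altered DNA methylation. Each genotype is represented by 1 SV40-immortalized line, so the line and the genotype cannot be told apart. An SD given here is the spread over days of a single line, and p-values measure the same spread. Experimental day 0 was kept out of the tests of level and is given beside the larger differences named here.

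Clustered protocadherins are cadherin-like adhesion proteins of the cell surface, best known from neurons, where each cell uses its own combination and thereby recognises its own branches. In the alpha and gamma clusters, each variable first exon has its own promoter and is spliced to constant exons shared by the cluster, whereas the beta genes have a single coding exon each. Promoters are chosen by contact with distant enhancers through CTCF and cohesin, and promoter methylation is known to go with a silent choice. The last genes of the alpha and gamma clusters, Pcdhac1, Pcdhac2, Pcdhgc3, Pcdhgc4 and Pcdhgc5, are called C-type, and their use is more uniform between cells than that of the variable genes. No sequence of this locus is shown.

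RRBS reached the clusters unevenly. All 22 gamma windows, 9 alpha windows and 10 beta windows held at least 3 cytosines and were tested, 41 in all. Pcdhb7, Pcdhb12, Pcdhb15 and Pcdhb22 held 1 or 2 cytosines, and 13 windows (Pcdha6, Pcdha7, Pcdha9, Pcdha10, Pcdha11, Pcdhb4, Pcdhb6, Pcdhb8, Pcdhb9, Pcdhb11, Pcdhb14, Pcdhb19 and Pcdhb21) held none. The windows held 633 distinct cytosines, 124 in alpha, 103 in beta and 406 in gamma genes, and no cytosine lay in more than 1 window. Most lay inside the first exon region: 400 were more than 500 bp downstream of the start, 189 lay from the start to 500 bp, and 44 lay upstream. A tested window held a median of 14 cytosines (range 3 to 52), against 28 over all autosomal windows, and 13 of the 41 held fewer than 10. Only 7 of the 41 held any upstream cytosine, so the levels describe mainly the first exons.

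Between 932307 (control day 12) and 1716381 (control day 5) cytosines were listed per library. The files give no read numbers, so the depth of each cytosine is unknown and no counting interval can be given. The 2 strands of a CpG, read separately, differed by a mean beta of 0.103 to 0.300 per library over 52 member pairs, against 0.0827 to 0.142 over 137401 autosomal pairs. No expression was measured in these files, so the fibroblast label was checked by methylation only. Of the fibroblast marker windows, 7 of 11 tested were under a beta of 0.2 in the control line (Vim, Fn1 and Col1a1 among them), as were 2 of 7 epithelial and 7 of 7 neuronal windows. The other 4 fibroblast windows were higher in the control line, at 0.794 for Col1a2, 0.753 for Thy1, 0.657 for Prrx1 and 0.335 for Pdgfra, and Prrx1 was at 0.218 in the experimental line (limma adjusted p = 0.0563). The lines were compared on M-values, log2((beta + 0.01)/(1 - beta + 0.01)), with limma and Benjamini-Hochberg adjustment over all 18718 autosomal windows that could be tested, at a threshold of 0.05, and no window of these marker lists passed. The members are paralogues with similar first exons, and how reads from near-identical stretches were placed was not tested.

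Clustered protocadherin windows were methylated in both lines, with Pcdhgc3 as the exception. The median control level was 0.733 over the 41 tested windows and 0.0843 over all 18718 autosomal windows tested. Among the 41 windows, 31 had a control level from 0.2 to 0.8, 9 lay above 0.8 and 1, Pcdhgc3, below 0.2, whereas 64.5% of all windows lay below 0.2. Single cytosines gave the same picture: 15.3% of the member cytosines were under 0.2 and 39.3% above 0.8 in the control line, against 49.0% and 27.3% over the autosomes. Non-clustered protocadherins, which lie outside these clusters and have no shared exons, differed in this, with 7 of 8 tested windows under 0.2 and a median of 0.115. Taf7, a TFIID subunit gene that lies inside the protocadherin interval, had a window level of 0.0286 in the control line and 0.0285 in the experimental line. These contrasts between sets of genes are descriptions, with no test.

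**Figure D1:**
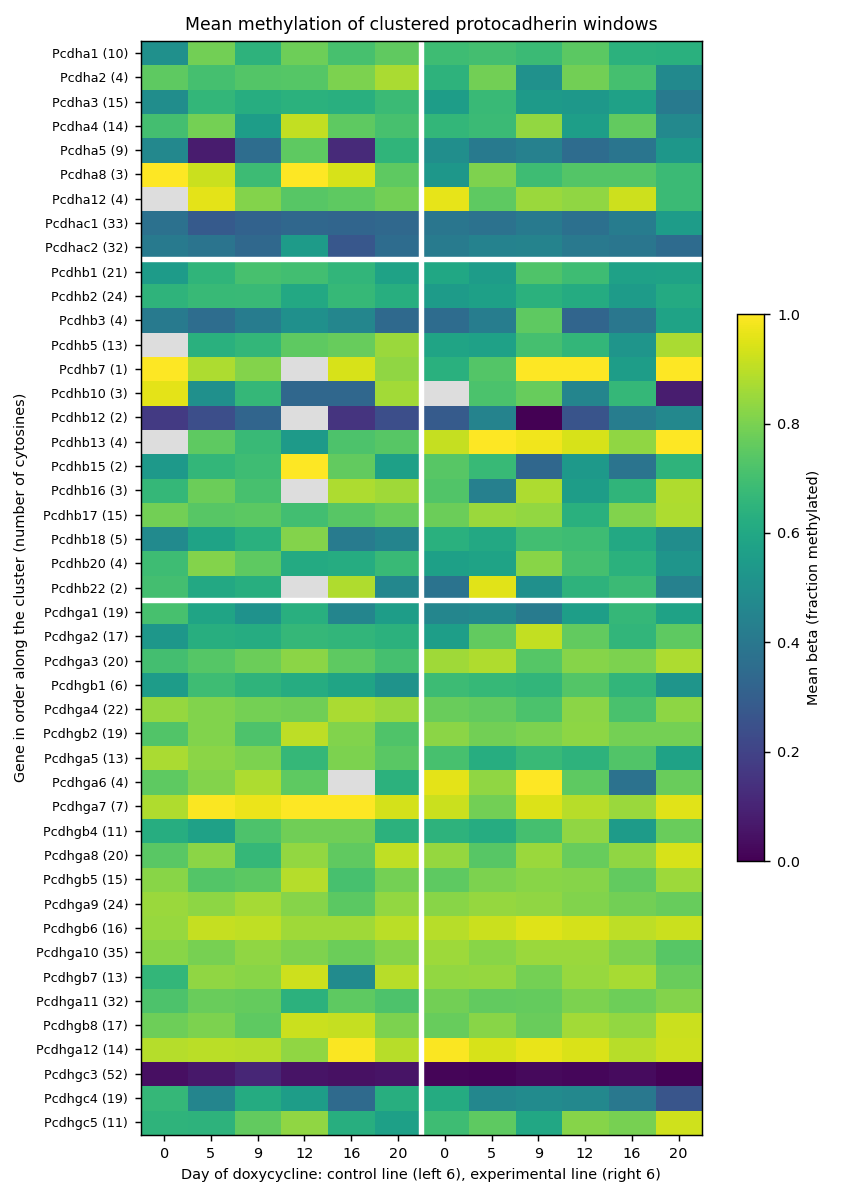
Mean beta (colour, 0 to 1) of each clustered protocadherin window with a listed cytosine (rows, in order along the chromosome, number of cytosines in brackets) in each library (columns, control line left, experimental line right, by day); grey marks a window not listed. Nearly all rows are intermediate to high in every library, and Pcdhgc3 is the row below 0.11 in all 12.

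By cluster, the mean over all listed cytosines was 0.510 ± 0.073 in the control line (SD over 6 libraries) and 0.511 ± 0.026 in the experimental line (SD over 5) for alpha. The beta cluster was at 0.655 ± 0.015 and 0.651 ± 0.043, and the gamma cluster at 0.669 ± 0.013 and 0.672 ± 0.012. In each cluster the difference between the lines was smaller than the spread over days. Gamma A genes averaged 0.767 ± 0.009 in the control and 0.778 ± 0.011 in the experimental line over 227 cytosines, and gamma B genes 0.783 ± 0.041 and 0.812 ± 0.024 over 97. The alpha C-type pair averaged 0.355 ± 0.050 and 0.416 ± 0.024 over 65 cytosines. The gamma C-type trio averaged 0.251 ± 0.040 and 0.209 ± 0.018 over 82, of which 52 belong to Pcdhgc3, and its other two genes were higher, as given gene by gene further on. The variable alpha genes stood at 0.659 ± 0.070 and 0.612 ± 0.059 over 59 cytosines.

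Pooled over windows, the level differed with the distance from the start. Over all members in the control line, upstream cytosines averaged 0.274 ± 0.033, those from the start to 500 bp 0.550 ± 0.043, those beyond 500 and up to 1500 bp 0.720 ± 0.010, and those beyond 1500 bp 0.699 ± 0.033. The experimental line followed the same order up to 1500 bp, with 0.359 ± 0.039, 0.557 ± 0.009, 0.724 ± 0.016 and 0.670 ± 0.017. The bins do not hold the same genes. Upstream, 13 cytosines of Pcdhac1 and 9 of Pcdhgc3 averaged 0.170 and 0.0005 in the control line. There the 9 of Pcdhga11 and 4 of Pcdhb13 averaged 0.537 and 0.687, so the upstream mean depends on which genes were listed. Of the 22 windows with at least 3 cytosines both up to 500 bp and beyond it, 19 were higher beyond 500 bp in the control line and 18 in the experimental line. Such a rise in the control line (86.4% of the 22) was found in 66.3% of the 7763 autosomal windows with both parts. With a level over 0.2 beyond 500 bp, it was found in 18 of 21 member windows and 84.8% of 2971 autosomal windows. Before 500 bp the median control level was 0.511 in those 21 member windows and 0.0976 in those 2971 windows, again as a description.

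**Figure D2:**
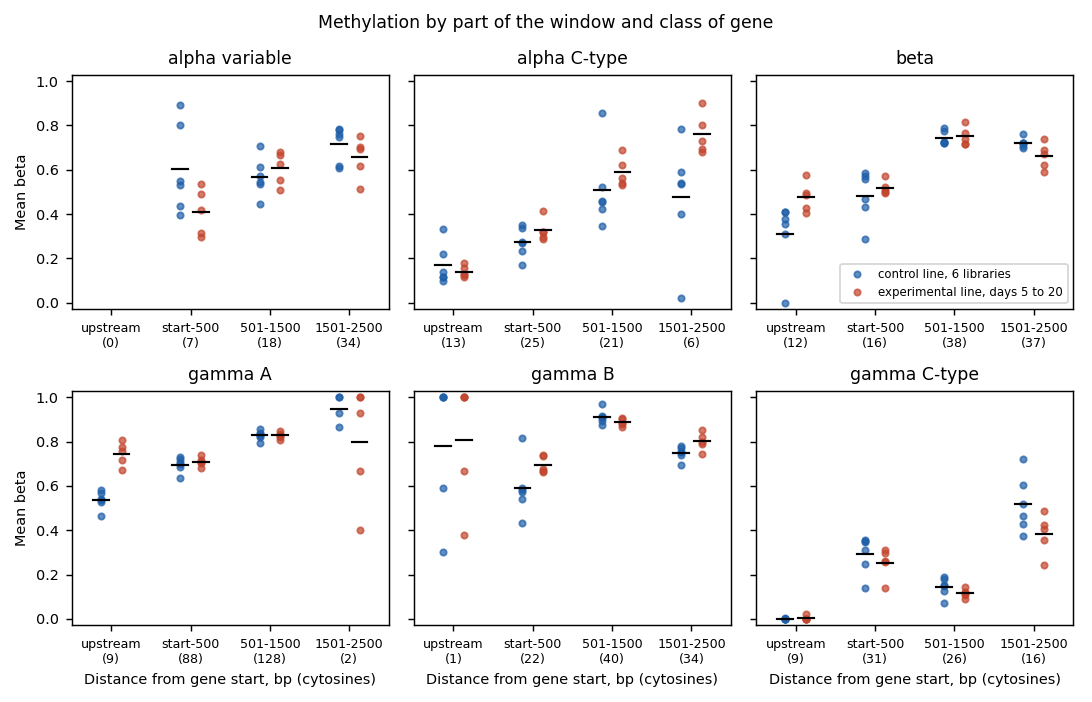
Mean beta (vertical axis) of the cytosines in 4 distance bins from the gene start (horizontal axis, bp, number of cytosines in brackets) for 6 classes of clustered protocadherin; points are libraries of the control line (blue, 6) and the experimental line on days 5 to 20 (red, 5), black bars are means. Gamma A and gamma B genes are highest beyond 500 bp, gamma C-type genes are near 0 upstream, and the upstream bin of gamma A is the one in which the 2 lines stand apart (0.537 and 0.746).

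The C-type genes differed widely from one another. Pcdhgc3 (chromosome 18, 37806410 to 37841873, plus strand), which is also expressed outside the nervous system, was the least methylated member. Its 52 cytosines lay between 131 bp before and 1849 bp after the start, and 46 were below 0.2 in the control line and all 52 in the experimental line. Up to 500 bp the levels were 0.0013 ± 0.0012 (control, 21 cytosines) and 0.0038 ± 0.0062 (experimental).

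Pcdhac2 (37143678 to 37187663), known in serotonergic neurons for the spacing of axon branches, had a low part near the start and a methylated part further in. From the start to 500 bp its 10 cytosines averaged 0.065 ± 0.069 in the control line and 0.015 ± 0.017 in the experimental line. Beyond 500 and up to 1500 bp 21 cytosines averaged 0.510 ± 0.179 and 0.590 ± 0.066. The window as a whole stood at 0.384 ± 0.093 and 0.407 ± 0.040, with an M-value difference of 0.15 (SE 0.27, limma adjusted p = 0.817).

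Pcdhac1 (37090136 to 37187657) rose earlier. Its 13 upstream cytosines averaged 0.170 ± 0.091 in the control line and 0.140 ± 0.026 in the experimental line, and the 15 cytosines up to 500 bp 0.443 ± 0.078 and 0.536 ± 0.089. Window levels in the experimental line were 0.377, 0.409, 0.368, 0.419 and 0.552 on days 5 to 20, and the control libraries ran from 0.283 over a median of 0.330 to 0.374. The ranges overlapped at the lowest experimental day, and the difference of 0.097 gave an M-value difference of 0.59 (SE 0.21, adjusted p = 0.191). Before doxycycline the window was at 0.394 in the experimental and 0.374 in the control line.

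Pcdhgc4 (37815079 to 37841873), whose product is needed for the survival of many interneurons, was intermediate. Its experimental values were 0.465, 0.484, 0.466, 0.399 and 0.263, and the control libraries ran from 0.344 over 0.585 to 0.668. The ranges overlapped, and the mean was 0.129 lower in the experimental line (M-value difference -0.76, SE 0.38, adjusted p = 0.336). Day 0 stood at 0.616 in the experimental and 0.668 in the control line. The 4 cytosines within 82 to 124 bp of the start, picked after their values were seen, were not stable between days of a line: the first of them was at 1, 0, 0.722, 1, 0 and 0 in the control libraries.

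Pcdhgc5 (37819546 to 37841873), whose product has been found at GABA synapses, held 3 cytosines near the start and 8 from 1977 bp on. The 8 distal cytosines averaged 0.821 ± 0.140 in the control line and 0.767 ± 0.152 in the experimental line. Over the window the lines stood at 0.681 ± 0.097 and 0.779 ± 0.119 (M-value difference 0.82, SE 0.50, adjusted p = 0.433). Day 0 was at 0.649 in the control and 0.690 in the experimental line.

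**Figure D3:**
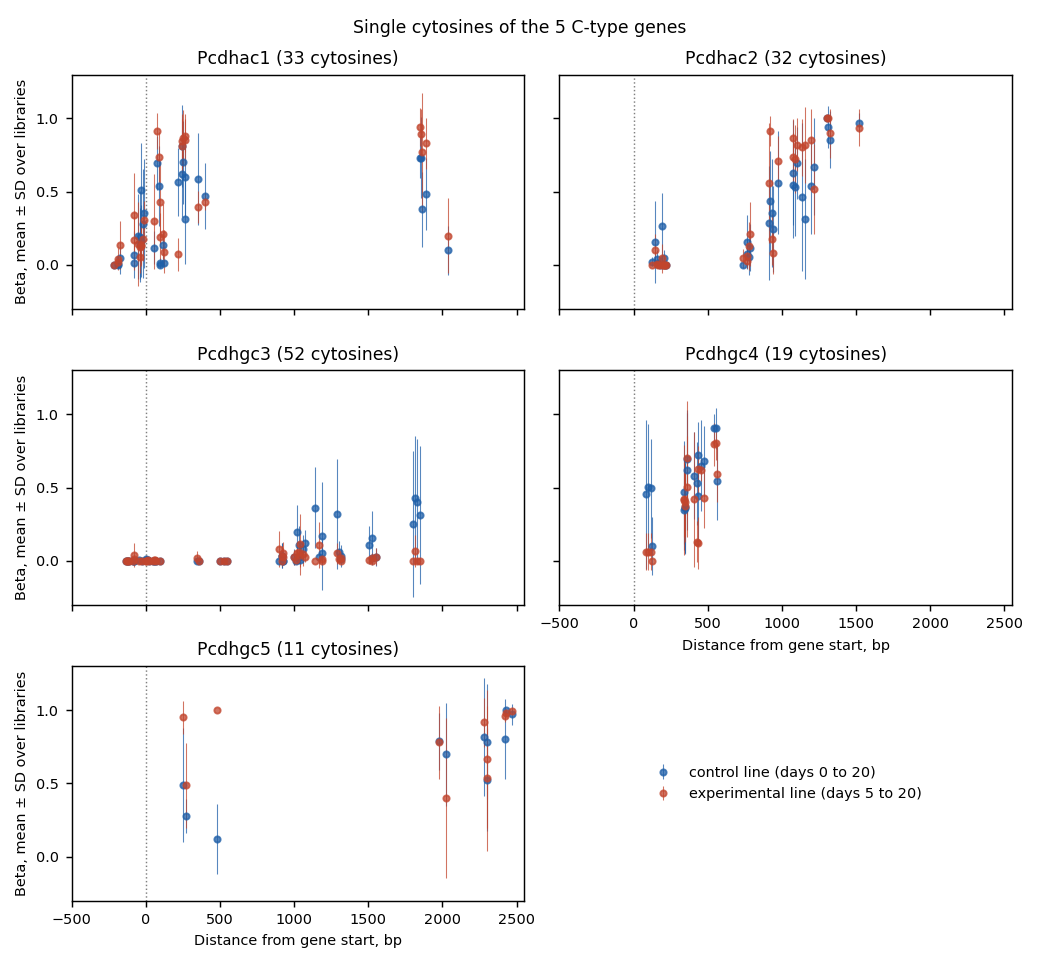
Beta of every listed cytosine (mean ± SD over the libraries of a line, vertical axis) against its distance from the gene start in bp (horizontal axis, dotted line at the start) for the 5 C-type genes; blue is the control line (days 0 to 20), red the experimental line (days 5 to 20). Pcdhgc3 lies at 0 around its start in both lines, with control cytosines above 0.1 from 1023 to 1849 bp, and Pcdhac2 climbs from near 0 to near 1 along the window.

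Of the 41 protocadherin windows 2 passed the test between the control series (6 libraries) and the experimental series (5), Pcdhb13 as higher and Pcdhgc3 as lower in the experimental line, against 2.39% of all windows (1.67% higher and 0.727% lower). The ranges of the 2 series did not overlap in the same 2 windows, against 5.03% of all windows. At an unadjusted p under 0.05 there were 9 windows, 5 higher and 4 lower, against 16.9% of all. Counted by sign alone, 21 windows were higher and 20 lower in mean beta. On day 0 the lines differed in the same direction as on days 5 to 20 in 26 of the 37 member windows listed in both day 0 libraries (70.3%), against 60.9% of 18077 autosomal windows, which is a description with no test. A difference between the lines was over 0.2 in 1 window and under 0.1 in 35.

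**Figure D4:**
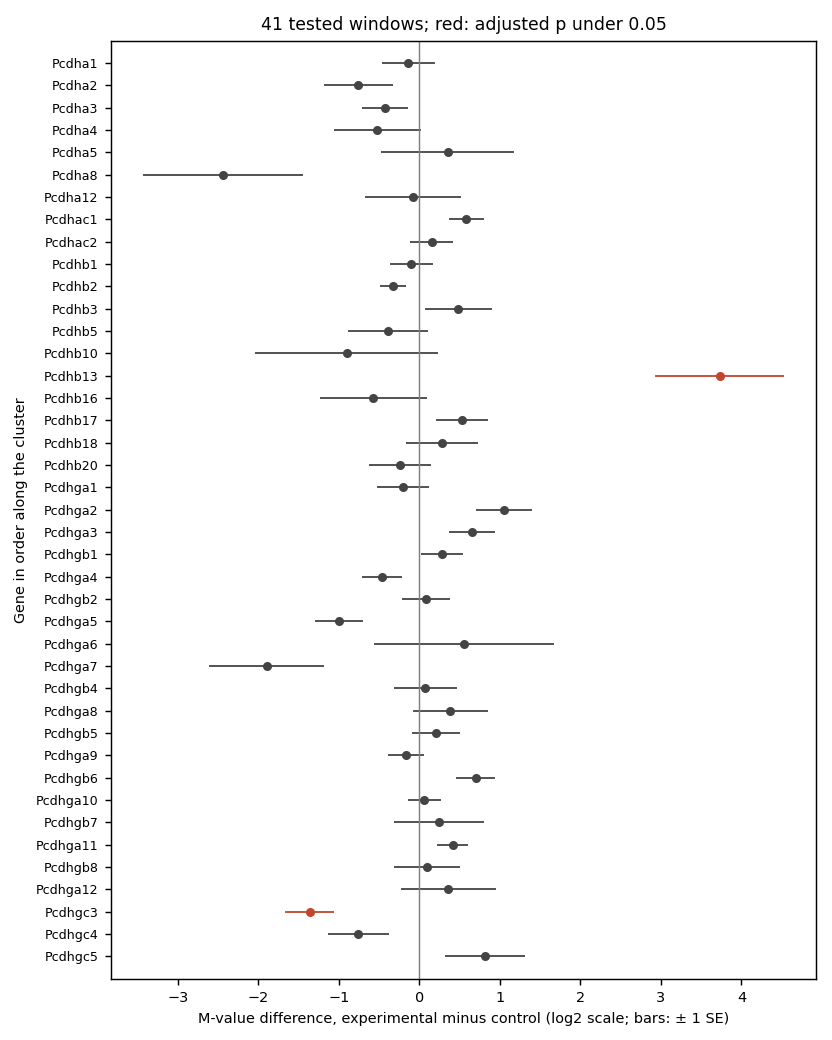
M-value difference between the experimental (days 5 to 20) and control (days 0 to 20) series for the 41 tested windows (horizontal axis, log2 scale, bars ± 1 SE from limma), in order along the chromosome (vertical axis). Most windows lie within about 1 unit of 0, and the called ones (red) are Pcdhb13 at 3.73 and Pcdhgc3 at -1.36.

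Pcdhb13 (37442517 to 37446209), a single-exon beta gene, showed the largest difference. Its level rests on 4 cytosines, all from 138 to 77 bp upstream of the start. In the experimental line they averaged 1, 0.980, 0.938, 0.833 and 1 on days 5, 9, 12, 16 and 20, and already 0.911 on day 0. The control libraries were at 0.750, 0.679, 0.545, 0.720 and 0.740 from day 5 on, and control day 0 listed none of the 4. All 5 experimental values lay above all 5 control values (0.950 ± 0.070 against 0.687 ± 0.084). The M-value difference was 3.73 (SE 0.80, limma adjusted p = 0.0426), and the call was lost when any library but experimental day 16 was left out (adjusted p from 0.0164 without that library to 0.0913).

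The Pcdhgc3 window was lower in the experimental line, at 0.0096 on day 5, 0.0272 on day 9, 0.0186 on day 12, 0.0307 on day 16 and 0.0075 on day 20. Experimental day 0 was at 0.0128. The control libraries ran from 0.0400 over 0.0526 to 0.106, with day 0 the lowest and day 9 the highest, so the lines differed in the same direction before doxycycline. The M-value difference was -1.36 (SE 0.31, limma adjusted p = 0.0444). It lay in the part beyond 500 bp, where 31 cytosines averaged 0.098 ± 0.041 in the control and 0.028 ± 0.014 in the experimental line. That part was also fitted alone, a cut chosen after seeing the data, so its p is not independent support. With Benjamini-Hochberg adjustment over windows cut to the same range, the difference was -1.62 (SE 0.35, limma adjusted p = 0.0410, against 2.35% of such windows called). Up to 500 bp the sign was opposite and the difference was 0.20 (SE 0.25, adjusted p = 0.735). In the control line 12 of the 52 cytosines were over 0.1, the first at 1023 bp. The last 4 of them, from 1800 to 1849 bp, were all at 1 on control day 9 and at 0 on control day 0, and 2 control libraries did not list them. Leaving out any 1 of the 11 libraries ended the call, with adjusted p from 0.0512 to 0.108.

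Among windows that did not pass, Pcdhga2 (37668927 to 37841870) had the largest difference upwards. Its experimental values were 0.761, 0.908, 0.761, 0.658 and 0.750, against controls from 0.530 over 0.635 to 0.667. The lowest experimental day lay within the control range (M-value difference 1.06, SE 0.35, adjusted p = 0.148). Before doxycycline this window was at 0.562 in the experimental and 0.530 in the control line. Pcdhga5 (37694375 to 37841870) went the other way, with 0.622, 0.679, 0.646, 0.727 and 0.577 against controls from 0.665 over 0.803 to 0.874 (M-value difference -1.0, SE 0.30, adjusted p = 0.118). On day 0 the Pcdhga5 window was at 0.707 in the experimental and 0.874 in the control line. Without control day 12, the library with the fewest cytosines and the lowest control value of this window, it passed (-1.18, adjusted p = 0.0388). It also passed over its 5 cytosines listed in all 12 libraries (-3.22, adjusted p = 0.0101) and with library weights (-1.0, adjusted p = 0.0420). Its other alternative fits did not pass. Among them was the block by day, which leaves out control day 0 (-0.84, limma adjusted p = 0.236). The window beyond 500 bp holds the same 13 cytosines. Its fit (-1.0, limma adjusted p = 0.149) differs only through the other windows fitted. Pcdha8 (36992467 to 37187657), with 3 cytosines, was at 0.729 ± 0.050 in the experimental and 0.883 ± 0.132 in the control line. Its M-value difference was -2.44 (SE 0.99, adjusted p = 0.238), and on day 0 the experimental minus control difference in beta was already -0.470.

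Among windows with at least 3 cytosines, the most methylated in the control line were Pcdhga7, Pcdhga12 and Pcdha8. Pcdhga7 stood at 0.962 ± 0.046 in the control and 0.886 ± 0.069 in the experimental line (M-value difference -1.90, SE 0.72, adjusted p = 0.203). Pcdhga12, the last of the gamma A genes, was at 0.900 ± 0.052 and 0.933 ± 0.027 (difference 0.36, SE 0.59, adjusted p = 0.795). Neither pair of ranges was separate.

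Of the genes at the ends of the clusters, Pcdhac2 and Pcdhgc5 are described above. Pcdha1, the first alpha gene, was at 0.697 ± 0.110 in the control and 0.682 ± 0.047 in the experimental line. Pcdhb1, the first beta gene, was at 0.640 ± 0.065 and 0.623 ± 0.079. Pcdhb22, the last, was at 0.655 ± 0.153 and 0.644 ± 0.201 on 2 cytosines, which was too few to be tested. Pcdhga1, the first gamma gene, was at 0.574 ± 0.091 and 0.539 ± 0.097. For Pcdha1, Pcdhb1 and Pcdhga1 the M-value differences were -0.14 (SE 0.33), -0.10 (SE 0.27) and -0.21 (SE 0.33). Across the 19 gamma A and gamma B windows, levels tended to be higher towards the constant exons, with Spearman's rho between order and level of 0.558 in the control and 0.651 in the experimental line. Over the 17 of them with cytosines beyond 500 and up to 1500 bp, rho in that bin was 0.336 and 0.0858. These windows share libraries and differ in where their cytosines lie, and no p is given.

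Single cytosines were compared in the same way over 917390 autosomal positions. Of the 606 member cytosines that could be tested 3 passed, against 0.453% of all. At an unadjusted p under 0.05 there were 82, of which 40 were higher and 42 lower, against 10.8% of all. The first of the 3 lay 481 bp downstream of the Pcdhgc5 start (position 37820027). It was at 1 in every experimental library that listed it, day 0 included, and at 0, 0, 0, 0, 0.130 and 0.600 in the control libraries (limma adjusted p = 0.0122). Its neighbours at 250 and 269 bp averaged 0.950 and 0.486 in the experimental line and 0.487 and 0.277 in the control line, so that the 3 cytosines together stood at 0.796 ± 0.102 and 0.253 ± 0.191 without overlap. They are all that the Pcdhgc5 window holds up to 500 bp, and the fit of that window did not pass (M-value difference 4.28, SE 1.05, limma adjusted p = 0.0667). Control day 12 listed only 1 of the 3.

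The second lay 527 bp into Pcdhga5 (position 37694902). It was at 0.739, 0.712, 0.5, 0.806 and 0.864 in the experimental line and between 0.962 and 1 in the control line (adjusted p = 0.0341), and stood at 0.744 on experimental day 0. The third lay 818 bp into Pcdhga4 (position 37686055). It was at 1, 1, 0.920, 1 and 1 in the experimental line and between 0.524 and 0.853 in the control line (adjusted p = 0.0409), and at 1 on experimental day 0. The Pcdhga4 window as a whole was lower in the experimental line, at 0.769 against 0.825. Its M-value difference was -0.46 (SE 0.25, limma adjusted p = 0.383), and -4.18 up to 500 bp (SE 1.01, adjusted p = 0.0620). All 3 called cytosines thus differed between the lines in the same direction on day 0.

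Upstream of the starts, where few cytosines were listed, the gamma mean was higher in the experimental line, a comparison with no test. The 19 upstream gamma cytosines averaged 0.371, 0.451, 0.420, 0.385 and 0.436 in the experimental line and between 0.266 and 0.322 in the control line, and day 0 stood at 0.379 and 0.322. Of the 19, 9 belong to Pcdhgc3, which was near 0 in both lines, 1 to Pcdhgb8, and 9 to Pcdhga11 (37755773 to 37841873), a gene singled out after these values were seen. The 9 upstream cytosines of Pcdhga11, from 126 to 9 bp before its start, averaged 0.671, 0.759, 0.776, 0.716 and 0.809 in the experimental line. In the control libraries they ran from 0.465 to 0.582. All 5 experimental values lay above the control values, and day 0 stood at 0.683 and 0.569. Downstream of the start the same gene had 0.799 ± 0.020 in the experimental and 0.805 ± 0.051 in the control line. Its window as tested did not pass (M-value difference 0.41, SE 0.20, adjusted p = 0.315). In the window ending 500 bp downstream it did (0.83, SE 0.18, limma adjusted p = 0.0444), as 1 of 2 members called among 26, against 1.88% of all such windows. That window holds the same 9 upstream cytosines, so its p is not independent support.

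**Figure D5:**
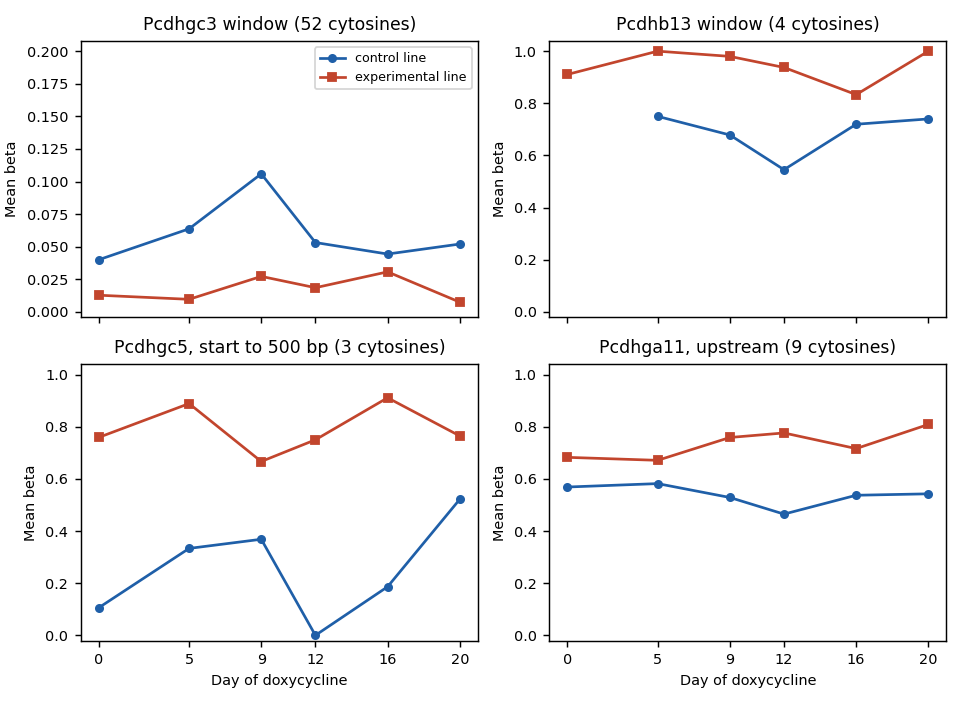
Mean beta (vertical axis) against day of doxycycline (horizontal axis) in the control (blue circles) and experimental (red squares) lines for the Pcdhgc3 window, the Pcdhb13 window, the 3 Pcdhgc5 cytosines up to 500 bp and the 9 upstream Pcdhga11 cytosines; each point is 1 library, and the Pcdhgc3 axis ends at 0.2. The lines are apart at day 0 wherever both were listed, and control day 0 has no Pcdhb13 point.

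No protocadherin window moved apart with time in a way that passed the test. In a limma fit with line, day and their interaction over all 12 libraries, 0 of 18726 windows passed (0.0%), and 3.93% had an unadjusted p under 0.05. Among the 41 members 2 had such a p. They were Pcdhga1, with a slope difference of 0.10 M-value units per day (SE 0.04), and Pcdha3 with -0.08 (SE 0.03), both with an adjusted p of 1.00. For Pcdhb13 and Pcdhgc3 the slope differences were 0.02 (SE 0.15) and 0.01 (SE 0.05).

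Regulators of the clusters were listed alongside. Windows of CTCF, cohesin and silencing factors (Ctcf, Rad21, Smc3, Wapl, Smchd1, Dnmt1, Dnmt3b, Setdb1, Trim28, Rest and Wiz) were tested in 11 of 14 cases, and none differed between the lines by limma's adjusted p. Of these, 10 were under 0.2 in the control line, and the maintenance methyltransferase gene Dnmt1 was at 0.904 on 12 cytosines around its annotated start. Whether that start is the one used in these cells was not tested. The 8 non-clustered protocadherin windows gave no call either.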

How the data were processed

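Percent methylation per CpG cytosine was deposited by the authors for 12 RRBS libraries, made by alignment to mm10 with Bismark, methylation extraction and bedGraph output. No read counts accompany the percent values, versions are not given in the sources used here, and a count model was not possible. Values were divided into beta fractions from 0 to 1. Of the autosomal cytosines, 1201548 were listed in at least 10 of 12 libraries. Starts came from RefSeq, with strand from its GRCm38.p6 promoter table (25747 genes) or an earlier annotation by symbol. The table had no row for the members, which were set to plus (25 of 58 were found, all plus, in the earlier annotation). Genes with no strand (13465 of 47038) were left out.

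Window means over at least 3 cytosines and single cytosines that were not constant were fitted in limma 3.58.1 (R 4.3.3) as M-values with an offset of 0.01, two-sided, 6 control against 5 experimental libraries, with experimental day 0 left out as in the study. The scripts were tested on simulated data, in which small shifts, and most shifts of single cytosines, went uncalled. Of 200 shifted windows, 0 were called at a shift of 1 M-value unit, 68.5% at 2 and 90% at 4. For single cytosines 0 were called at 2 and at 4 units, and 28.5% at 8. A window that differs by about 1 unit and did not pass is thus not shown to be equal in the lines. A line by day fit used all 12 libraries. A library that did not list a cytosine was missing for it.

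Named genes were the members past the threshold, the 3 largest increases and decreases, the C-type genes, the 3 highest and lowest control levels and the ends of each cluster, with up to 3 called cytosines in each direction. The members and lists were chosen with earlier results of these data known. Alternatives changed the offset, scale, cytosine sets, window, day 0, pairing by day and library weights, and left out each library in turn.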

Additional observations from a re-analysis of the deposited data

Results flagged for a closer look

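Of 36 series examined (windows of the named genes and cluster means, by line), 4 held a library whose gap to the nearest other passed Dixon's 95% value, where chance flags about 1 in 20. In the control line, the Pcdhgc3 window stood at 0.106 on day 9, against 0.0400 to 0.0637 on the other days, on a day when its 4 most distal cytosines were all at 1. The Pcdhga2 window stood at 0.530 on control day 0, against 0.620 to 0.667 afterwards. In the experimental line, the Pcdhac1 window stood at 0.552 on day 20, against 0.368 to 0.419 on the other days tested. The alpha cluster mean stood at 0.652 on control day 12, against 0.454 to 0.523. That library listed 68 of the 124 alpha cytosines, and over the 53 alpha cytosines listed in all 12 libraries it was at 0.649, against 0.430 to 0.615 in the other control libraries. Without it the difference between the lines in the alpha mean was 0.0291, against 0.00082 with it. Causes were not tested.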

How the results depend on the processing

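Of 14 named windows under 325 alternative fits, 284 kept direction and side of the threshold, 32 lost a call, 3 gained one and 6 changed sign. Windows uncalled in the main fit were counted as kept when they stayed uncalled, so this total says little about the called ones. Pcdhgc3 kept its call in 0 of 11 fits with a library left out and in 6 of 13 other fits. Pcdhb13 kept its call in 1 of 11 and in 5 of 10. The 2 called windows became 0 with an offset of 0.001, with neighbouring cytosines merged and with windows of at least 1 cytosine. They also became 0 with the replicate block by day. They became 1 on beta values, without constant cytosines, with at least 5 cytosines and in the window beyond 500 bp. That last alternative was chosen after seeing the data. With single libraries left out, 0 to 1 were called. Where 2 were called, they were not always the same 2. Over cytosines in all 12 libraries and with library weights they were Pcdhgc3 and Pcdhga5, and up to 500 bp Pcdhb13 and Pcdhga11. Without control day 12 the 1 call was Pcdhga5. The 3 called cytosines became 5 with an offset of 0.05, 6 on beta values, 5 with experimental day 0 added and 0 with the replicate block by day, and were 1 to 3 with single libraries left out, at 1 without control day 9, control day 16 or experimental day 5. With the window ending at 500 bp, Pcdhgc3 changed sign to 0.20, Pcdhac2 to -1.49 and Pcdhb1 to 0.59. Pcdhgc5 changed to -0.72 beyond 500 bp, Pcdhac1 to -0.62 over cytosines in all 12 libraries, and Pcdhb1 to 0.0092 without experimental day 5 (-0.26 to 0.0092 with single libraries left out). These are M-value differences, and beyond the change of window or cytosines the cause was not tested. The slope count stayed at 0 in the fits run. Over all windows, the 448 calls became 236 with an offset of 0.001, 296 up to 500 bp, 246 beyond 500 bp, 747 with day 0 added, 888 with library weights, 10 with the block and 203 to 546 with single libraries left out. Same-day libraries did not deviate together (correlations of -0.0405 to 0.0313 over 18096 windows), so the day numbers do not pair them. Over the alternatives, differences in cluster means ran from -0.0459 to 0.0291 for alpha, from -0.0205 to 0.0077 for beta and from -0.0069 to 0.0073 for gamma, and changed sign in each. Without read numbers, depth limits single cytosines most, and a library with few reads at a cytosine cannot be recognised.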
